A study of Mus musculus with 12 samples.

Results

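The mRNA of mouse livers given exosomes with 1 of 2 kinds of load against Stat3 was compared gene by gene. These are 6 of the 12 libraries of the study, chosen by their labels alone: 3 labelled mASO STAT3 iExos and 3 labelled siSTAT3 iExos. The mice were of the strain BALB/c and each group is named for an injected preparation. The other 6 libraries are the controls of the loads, 3 labelled siCntrl iExos and 3 labelled mASO Scrbl iExos. The 4 groups share the strain, the tissue and injection of iExos, and livers without an injection were not analysed here. The title of the series places the work in liver fibrosis, and the labels give no injury, dose, time, age or sex. Nothing in them ties a replicate to an animal of its own, and the spread that the tests use may therefore be technical. A liver below is 1 library.

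Exosomes are small membrane vesicles that cells release and that can carry RNA into other cells. A small interfering RNA (the prefix si) guides an Argonaute protein to a matching mRNA, which is then cut or silenced. An antisense oligonucleotide (ASO) is a single strand that pairs with its target and can recruit RNase H1 to cut the mRNA, or block its use without cutting. The sources used here do not say what the m in mASO stands for, and the sequences of the loads were not analysed here. STAT3 is a transcription factor that cytokines such as interleukin 6 activate through Janus kinases. In hepatocytes it drives acute phase genes and its own inhibitor Socs3. The 2 loads name 1 target by 2 routes, and the comparison asks where the livers that received them differed and what they shared.

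The 6 libraries held 39844158 to 61804382 counts. Levels are CPM, counts per 1e6 counts of a library, on totals scaled by edgeR's TMM factors, which lay between 0.804 and 0.901 here and between 1.11 and 1.27 in the controls. Values by library are given in the order of replicates 1, 2 and 3, the mASO STAT3 livers first. Log2 fold changes are mASO STAT3 minus siSTAT3 unless another pair is named, ± SE, from 1 edgeR fit over the 12 libraries. The tissue matched its label: Alb, the albumin gene, took 7.01% to 9.07% of the counts, and hepatocyte markers lay at like levels in both groups (17 of 17 within 1 log2 unit by their 95% interval, against 66.7% of all genes tested). The pancreas genes Prss2, Cpa1 and Pnlip had 0 counts in each of the 6 livers, as did Cdh17 of gut epithelium, which was at 3.46 to 11.9 CPM in the controls. Other genes of these lists were found. Cela1 of the pancreas list was at 15.7 to 24.6 CPM in the 6 livers and 3.62 to 6.65 CPM in the controls, and Ctrb1 had 0 to 1 count. Of the gall bladder and gut list, Muc1 had 39 to 90 counts a liver, Tff2 3 to 32, Vil1 0 to 5 and Muc5b 0 to 1. A count of 0 allows up to 0.0921 CPM at the depth of the shallowest library (3 counts, counting error only). The liver siSTAT3 2 stood apart, with 295 genes more than 1 log2 unit from the median of the other 5 libraries, against 45 to 149 genes for each of the others. The sample names end in numbers whose meaning is not given, 3 of which occur in both arms, so anything that went with a whole group cannot be told apart from its load.

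Stat3 mRNA stood at 105, 88.2 and 115 CPM with mASO STAT3 and 91.5, 116 and 122 CPM with siSTAT3. The highest value was in siSTAT3 3 and the lowest in mASO STAT3 2, and the groups overlapped. The controls had 7959, 8407 and 7700 Stat3 counts in siCntrl and 8767, 7428 and 8165 in mASO Scrbl. On the TMM scale each control lay within the range of the 6 STAT3-labelled livers, 88.2 to 122 CPM. On library totals alone each control lay above each of the 6, so the place of Stat3 against the controls depends on the scaling. The log2 fold change was −0.10 ± 0.14 (95% interval −0.40 to 0.21, edgeR adjusted p = 0.987), and an exact two-sided permutation test gave p = 0.5, and no p under 0.1 can be reached with 3 and 3 libraries. Of the other 6 STAT genes, Stat5a, which transmits growth hormone and cytokine signals, had the smallest p. Stat5a stood at 14.9, 14.1 and 13.2 CPM in mASO STAT3 against 8.87, 9.93 and 10.1 CPM in siSTAT3, without overlap (0.54 ± 0.16, edgeR adjusted p = 0.512). Stat2, Stat5b and Stat6 had log2 fold changes of 0.21, 0.13 and 0.06, each with an interval within 1 log2 unit. Stat4, of lymphoid cells and low in liver, was at 0.65 with an interval of −0.23 to 1.54.

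Between the 2 loads 0 of 15720 genes passed an adjusted p of 0.05 by edgeR's quasi-likelihood test. At an unadjusted p under 0.05, 501 genes (3.19%) lay higher and 418 (2.66%) lower in the mASO STAT3 livers by edgeR, and 1042 by DESeq2 and 750 by limma voom lay on either side. The 3 and 3 libraries did not overlap for 949 genes (6.04%) that were higher in mASO STAT3 and for 808 (5.14%) that were lower. For 10488 genes (66.7%) the whole 95% interval lay within 1 log2 unit, and the median width of an interval was 0.963 log2 units. The middle of the fold changes was 0.003, and 90% of genes lay between −0.63 and 0.72. DESeq2's Wald test called 78 genes, 59 higher and 19 lower, 73 of which did not overlap between the groups. With the 6 libraries alone it called 92, and 60 genes were in both sets (76.9% of the first and 65.2% of the second).

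**Figure D1:**
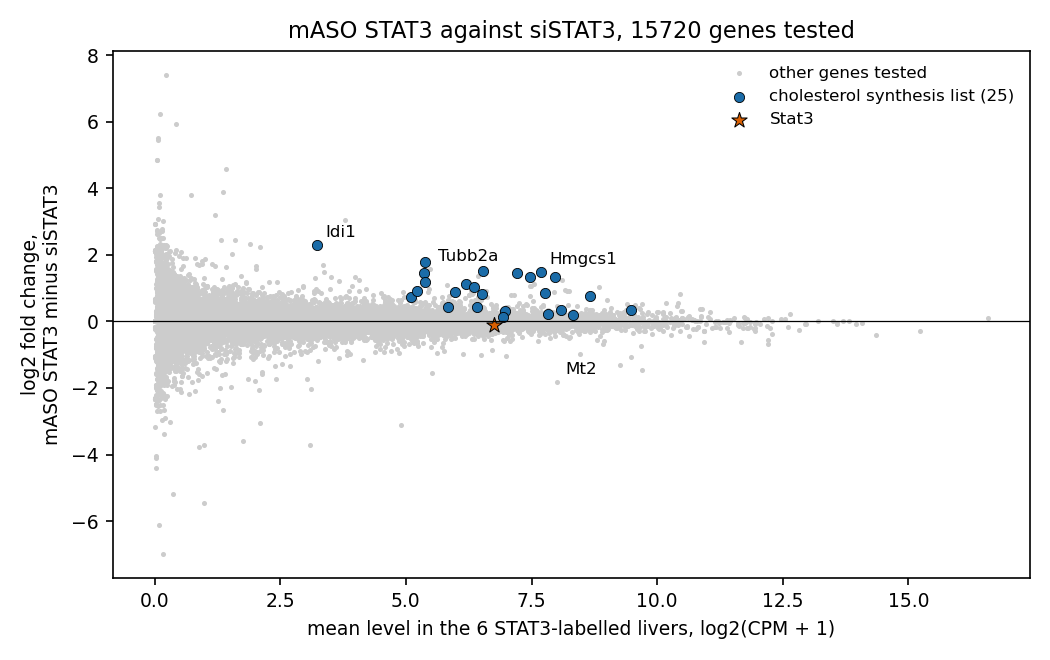
Log2 fold change, mASO STAT3 minus siSTAT3 (vertical axis), against the mean level over the 6 livers (horizontal axis, log2 of CPM + 1) for the 15720 genes tested. Both axes are on a log2 scale, each point is 1 gene, the star is Stat3 and the larger points are the cholesterol synthesis list. The 25 list members lie above 0 and the median of all genes is 0.003.

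A liver given one load was about as like a liver given the other as like one of its own group. Across the 15720 genes, the median absolute difference of log2(CPM + 1) was 0.137 to 0.271 for the 9 pairs made of a siSTAT3 and a mASO STAT3 liver. Within siSTAT3 the 3 pairs lay between 0.140 and 0.264, and within mASO STAT3 between 0.165 and 0.189. Pairs of a STAT3-labelled liver with a control of its own arm lay between 0.365 and 0.509, without overlap with those ranges. Correlations of log2 CPM across genes, which are not independent replicates, ran from 0.982 to 0.994 between the 2 STAT3 groups and are a description.

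**Figure D2:**
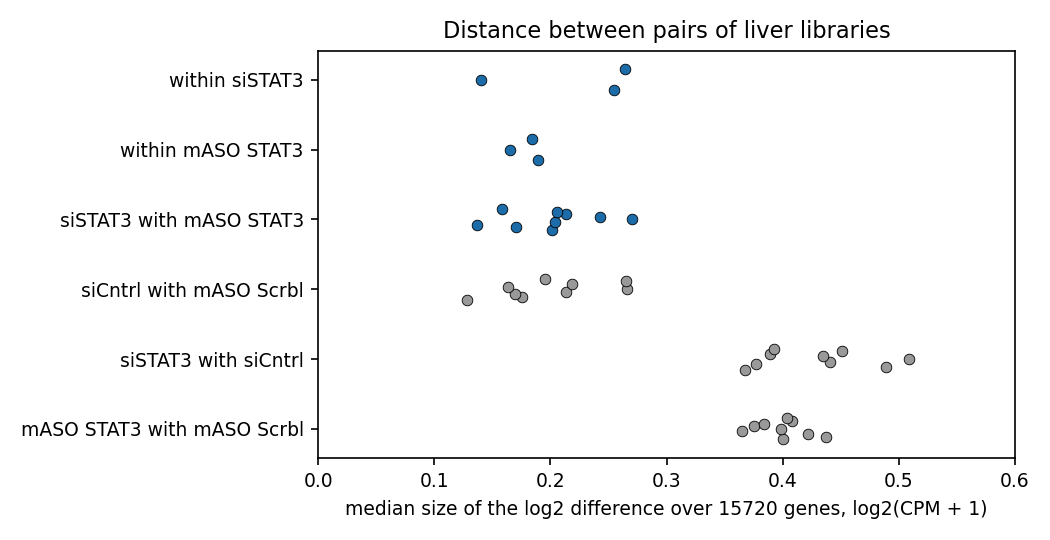
Median absolute difference of log2(CPM + 1) over the 15720 genes tested (horizontal axis, log2 units) by kind of library pair (vertical axis), 1 point a pair. Pairs across the 2 STAT3 loads (0.137 to 0.271) overlap with pairs within a group and lie below pairs of a STAT3-labelled liver with a control of its own arm (0.365 to 0.509).

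Of 53 gene lists, which were chosen with earlier results of these data known, cholesterol synthesis had the largest median difference between the loads. This pathway builds sterols from acetyl-CoA through mevalonate and squalene, and its genes are switched on together by SREBP2 (gene Srebf2) when membranes are short of sterol. All 25 listed genes were tested and had a log2 fold change above 0. At an unadjusted p under 0.05, 19 lay higher in mASO STAT3, against 3.19% of all genes, and 0 lower. The groups did not overlap for 20 of them, against 6.04% of all genes in that direction. The list's median was 0.88, against 0.003 over all genes. Summed over the list, the mASO STAT3 livers held 4250, 5253 and 5056 CPM, against 3437, 2683 and 2819 CPM in the siSTAT3 livers. None of the 25 passed by edgeR over all genes, where Hmgcs1 came nearest, while DESeq2 called 10 of them.

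The early steps lead from acetyl-CoA to isoprenoid units. Hmgcs1, the cytosolic HMG-CoA synthase, stood at 220.3, 383 and 302 CPM in the mASO STAT3 livers and 123, 107 and 92.7 CPM in the siSTAT3 livers. Each mASO STAT3 liver was above each siSTAT3 liver (1.48 ± 0.24, 95% interval 0.97 to 1.996, edgeR adjusted p = 0.0793). Pmvk, which adds the second phosphate to mevalonate, stood at 84.4, 124 and 88.3 CPM with mASO STAT3 and 50.3, 49.4 and 37.8 CPM with siSTAT3 (1.11 ± 0.22), and Mvd, the decarboxylase after it, at 50.7, 65.97 and 59.7 CPM in mASO STAT3 against 26.8, 25.7 and 11.6 CPM in siSTAT3 (1.46 ± 0.30). Neither overlapped between groups. Idi1, which interconverts the 5-carbon units, was the widest apart of the list (2.29 ± 0.62). Its levels were 6.25, 21.1 and 14.4 CPM in the mASO STAT3 livers and 5.16, 1.65 and 1.597 CPM in the siSTAT3 livers, so that mASO STAT3 1 and siSTAT3 1 differed little from each other and the other 2 livers of each group carried the gap. Fdps, farnesyl diphosphate synthase, stood at 197, 265 and 185 CPM with mASO STAT3 and 91.97, 80.8 and 62.05 CPM with siSTAT3 (1.46 ± 0.36). Mvk, mevalonate kinase, had a log2 fold change of 0.74 ± 0.26, and Acat2, an acetoacetyl-CoA thiolase, of 0.44 ± 0.19.

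The committed sterol steps showed the same order of groups. Sqle, squalene epoxidase, stood at 42.04, 87.3 and 59.3 CPM in mASO STAT3 against 28.6, 17.9 and 8.39 CPM in siSTAT3. The groups did not overlap and siSTAT3 1 was the highest of its group (1.77 ± 0.42, edgeR adjusted p = 0.391). Cyp51, the lanosterol demethylase, stood at 103, 171 and 133 CPM in the mASO STAT3 livers and 57.6, 52.98 and 31.5 CPM in the siSTAT3 livers (1.52 ± 0.32). Sc4mol, the older symbol of the C4-methylsterol oxidase Msmo1, stood at 221, 266 and 269 CPM with mASO STAT3 and 123, 111 and 66.1 CPM with siSTAT3 (1.34 ± 0.29), and Nsdhl, which acts on the same carbon, had a log2 fold change of 1.19 ± 0.26. Dhcr7, which makes the last step to cholesterol, stood at 92.2, 124 and 111 CPM in mASO STAT3 against 59.97, 51.1 and 48.9 CPM in siSTAT3, also without overlap (1.03 ± 0.23). Lss (0.88), Hsd17b7 (0.92) and Sc5d (0.85) were among the 19 as well. Other enzymes of the list had smaller log2 fold changes that missed an unadjusted p of 0.05: Fdft1 (0.36), Tm7sf2 (0.33, without overlap) and Ebp (0.20).

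Regulators of the list had smaller estimates than Hmgcs1 or Sqle. Srebf2 stood at 63.8, 65.9 and 62.03 CPM in the mASO STAT3 livers and 49.4, 45.2 and 48.7 CPM in the siSTAT3 livers (0.42 ± 0.13), a narrow spread within each group and no overlap. Insig1, an endoplasmic reticulum protein that holds SREBP2 back and is itself its target, had a log2 fold change of 0.78 ± 0.30. Stard4, a sterol transfer protein, was at 0.12 ± 0.19, and at −0.02 without siSTAT3 2.

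Livers within a group also differed along this list. siSTAT3 1 was the highest of its group for 21 of the 25 genes, mASO STAT3 2 the highest of its group for 15, and mASO STAT3 1 the lowest for 21. Leaving out 1 library at a time gave 16 to 18 members at an unadjusted p under 0.05, with 18 without siSTAT3 2, and the median lay between 0.74 and 1.11. In the controls the summed level of the list was 2562, 1527 and 2682 CPM in siCntrl and 2104, 1713 and 1711 CPM in mASO Scrbl, with a median log2 fold change of −0.28 for mASO Scrbl minus siCntrl. The median of the difference between the 2 load differences was 1.16, and 17 of 25 members lay higher in it at an unadjusted p under 0.05 (4.45% of all genes did). Against its own control the list's median was 0.99 in the mASO arm and 0.02 in the siRNA arm. The latter median came from members on both sides. By edgeR's adjusted p, 11 of the 25 were called higher and 9 lower in the siRNA arm, and 19 higher and 0 lower in the mASO arm. Of all genes, 45.7% were called either way in the siRNA arm and 43.8% in the mASO arm. These values against the controls depend on the TMM scale. Library totals move the median of all genes to −0.63 in the mASO arm and −0.53 in the siRNA arm. As a share of raw counts, the list took 0.345% to 0.473% in mASO STAT3 and 0.214% to 0.261% in mASO Scrbl. That share was 0.217% to 0.289% in siSTAT3 and 0.192% to 0.299% in siCntrl.

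**Figure D3:**
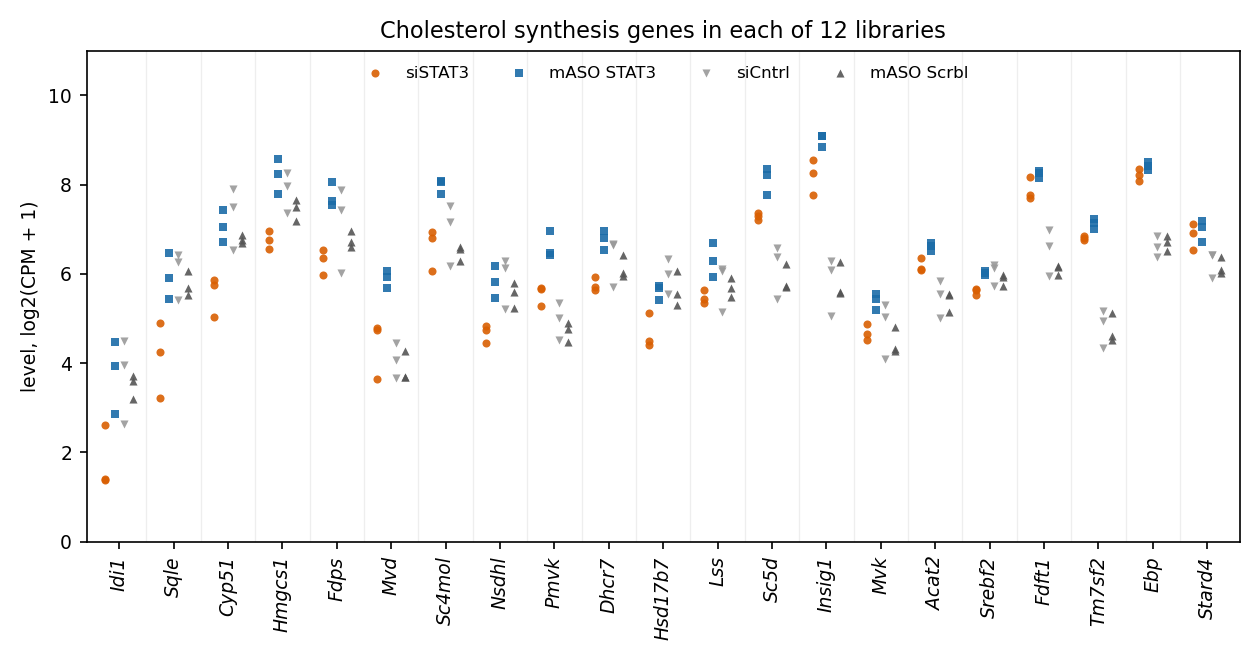
Level of 21 of the cholesterol synthesis genes (horizontal axis, ordered by fold change) in the 12 libraries (vertical axis, log2 of CPM + 1), 1 point a library and 1 marker a group. For 18 of them the 3 mASO STAT3 points lie above the 3 siSTAT3 points.

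The promoter window of Hmgcs1, the list member with the smallest p, is shown because it is the 1 window among those of the list that holds the letters TCACNCCAC, a form of the sterol regulatory element. The motif was chosen after the values were seen and was searched on both strands from 250 bases before to 50 after each RefSeq start. It was found in 1.19% of the windows of all tested genes that matched and in 1 of 20 windows (5.0%) of the 17 list members that matched. The sequence is RefSeq's, build GRCm38.p6, plus strand, chr13:119690101-119690350, the 250 bases before the start, with the matched letters in capitals.
Hmgcs1: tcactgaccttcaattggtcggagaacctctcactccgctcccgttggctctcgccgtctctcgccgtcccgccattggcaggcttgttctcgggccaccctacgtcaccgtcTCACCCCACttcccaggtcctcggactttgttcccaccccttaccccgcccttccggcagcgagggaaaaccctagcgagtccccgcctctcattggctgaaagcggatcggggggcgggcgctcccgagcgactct
The match begins 137 bases before the start, and it is a description and not a bound site.

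Fatty acid and triglyceride synthesis, which SREBP1c and insulin drive in liver, lay to the same side with a smaller median. Of 24 genes tested, 10 lay higher in mASO STAT3 at an unadjusted p under 0.05 (3.19% of all genes did) and 0 lower, and 11 did not overlap on that side (6.04% of all genes). The median was 0.40, and 0.25 without siSTAT3 2. Fasn, fatty acid synthase, stood at 347, 492 and 324 CPM with mASO STAT3 and 213, 137 and 139.7 CPM with siSTAT3 (1.25 ± 0.24, edgeR adjusted p = 0.211). Acly, which makes cytosolic acetyl-CoA for both pathways, stood at 290.1, 317 and 347 CPM in mASO STAT3 against 182, 138 and 193 CPM in siSTAT3 (0.89 ± 0.21), and Elovl6, a fatty acid elongase, at 92.7, 114 and 102 CPM in the mASO STAT3 livers and 74.9, 47.99 and 49.02 CPM in the siSTAT3 livers (0.85 ± 0.22). These 3 did not overlap between groups. Pnpla3, a lipid droplet protein, was low at 3.96, 3.35 and 3.04 CPM with mASO STAT3 and 0.904, 0.643 and 0.307 CPM with siSTAT3 (2.46 ± 0.54). The summed level of the list did not overlap either, at 8395, 8148 and 8791 CPM in mASO STAT3 against 7957, 5837 and 6469 CPM in siSTAT3. Leaving out 1 library gave 7 to 10 members at that p. Of 36 genes of fatty acid oxidation and PPARA targets, 5 lay higher and 0 lower, with a median of 0.18. Pdk4, the kinase that shuts pyruvate dehydrogenase in fasting, stood at 17.1, 13.4 and 14.2 CPM in mASO STAT3 against 7.44, 5.35 and 5.01 CPM in siSTAT3 (1.32 ± 0.40).

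In glucose handling 2 of 26 genes lay higher and 1 lower at an unadjusted p under 0.05, against 3.19% and 2.66% of all genes. Ppp1r3b, a glycogen-targeting phosphatase subunit, stood at 401, 367 and 365 CPM in the mASO STAT3 livers and 281, 147 and 164 CPM in the siSTAT3 livers, without overlap (0.94 ± 0.24). Gys2, the liver glycogen synthase, was at −0.54 ± 0.25, and at −0.30 without mASO STAT3 2.

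Heat shock genes lay to the mASO STAT3 side in 18 of 18 cases, with a median of 0.48. At an unadjusted p under 0.05, 8 lay higher, against 3.19% of all genes, and 0 lower, and 7 did not overlap, against 6.04% of all genes in that direction. Hsp90aa1, the inducible HSP90, stood at 137, 238 and 163 CPM with mASO STAT3 and 132, 91.1 and 87.2 CPM with siSTAT3 (0.79 ± 0.21), and its co-chaperone Stip1 at 81.2, 125 and 93.3 CPM in mASO STAT3 against 73.4, 51.7 and 65.3 CPM in siSTAT3 (0.65 ± 0.17). mASO STAT3 2 and siSTAT3 1 were each the highest of their group for 15 of the 18 genes. The count rested on single livers: it was 3 without mASO STAT3 2, 5 without siSTAT3 3, and 12 without mASO STAT3 1 or without siSTAT3 1. The control loads lay to the same side. For mASO Scrbl minus siCntrl the median was 0.24, with 5 of 18 higher and 0 lower at that p (7.85% of all genes on either side). In the difference between the 2 load differences 1 of 18 lay higher (4.45% of all genes).

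The clock list lay on both sides, 3 of 21 genes higher and 3 lower at an unadjusted p under 0.05, against 3.19% and 2.66% of all genes. Arntl, the core activator BMAL1, stood at 2.71, 3.37 and 1.51 CPM in the mASO STAT3 livers and 0.493, 0.257 and 0.645 CPM in the siSTAT3 livers (2.45 ± 0.48), and no value overlapped. Dbp, an output factor that BMAL1 drives in another phase, stood at 68.1, 68.4 and 112 CPM with mASO STAT3 and 137, 192 and 178 CPM with siSTAT3 (−1.03 ± 0.26). Nr1d1, the REV-ERB alpha repressor of Arntl, stood at 16.9, 21.3 and 18.8 CPM in mASO STAT3 against 25.8, 52.9 and 32.3 CPM in siSTAT3 (−0.96 ± 0.31), and at −0.61 without siSTAT3 2. Per2 was at 0.50 ± 0.17. The labels give no hour of collection.

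Metallothioneins bind zinc and copper and are induced by metals and glucocorticoids. Mt2 stood at 105, 69.6 and 162 CPM in the mASO STAT3 livers and 272, 540.5 and 381 CPM in the siSTAT3 livers, without overlap (−1.83 ± 0.32, edgeR adjusted p = 0.178), and Mt1 at 575, 248 and 504 CPM with mASO STAT3 and 855, 1784 and 1014 CPM with siSTAT3 (−1.46 ± 0.35). Both had lower levels in each mASO STAT3 liver than in each siSTAT3 liver. For mASO Scrbl minus siCntrl their estimates lay on the same side without passing (log2 fold changes −0.98 and −1.18, edgeR adjusted p = 0.561 and 0.517). Hamp, the iron hormone hepcidin and a STAT3 target, stood at 375, 406 and 275 CPM in mASO STAT3 against 700.3, 678 and 1249 CPM in siSTAT3 (−1.31 ± 0.59), and Slc30a10, a manganese exporter, was at 1.21 ± 0.31. In the list of 22 metal genes 3 lay higher and 3 lower at an unadjusted p under 0.05, against 3.19% and 2.66% of all genes.

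Transcripts encoded in mitochondrial DNA lay on the siSTAT3 side in 15 of 15 cases, with a median of −0.63, and 5 had an unadjusted p under 0.05 against 2.66% of all genes. Their sum was 56982, 44633 and 55005 CPM in mASO STAT3 against 69594, 56441 and 70316 CPM in siSTAT3, where siSTAT3 2 lay inside the range of the other group. mt-Nd2, a subunit of complex I, stood at 3983, 3232 and 4229 CPM in the mASO STAT3 livers and 6082, 4083 and 6697 CPM in the siSTAT3 livers (−0.56 ± 0.22), and mt-Co1, of complex IV, was at −0.39 ± 0.21. The largest estimates rested on siSTAT3 3: mt-Atp6 moved from −1.72 to −0.90, mt-Co3 from −1.35 to −0.68 and mt-Co2 from −1.27 to −0.79 without it. The count of 5 became 0 without siSTAT3 3, 2 without mASO STAT3 2, 3 without siSTAT3 1 and 9 without siSTAT3 2. The nuclear genes of oxidative phosphorylation, by contrast, had 31 of 31 intervals within 1 log2 unit and a median of 0.06.

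**Figure D4:**
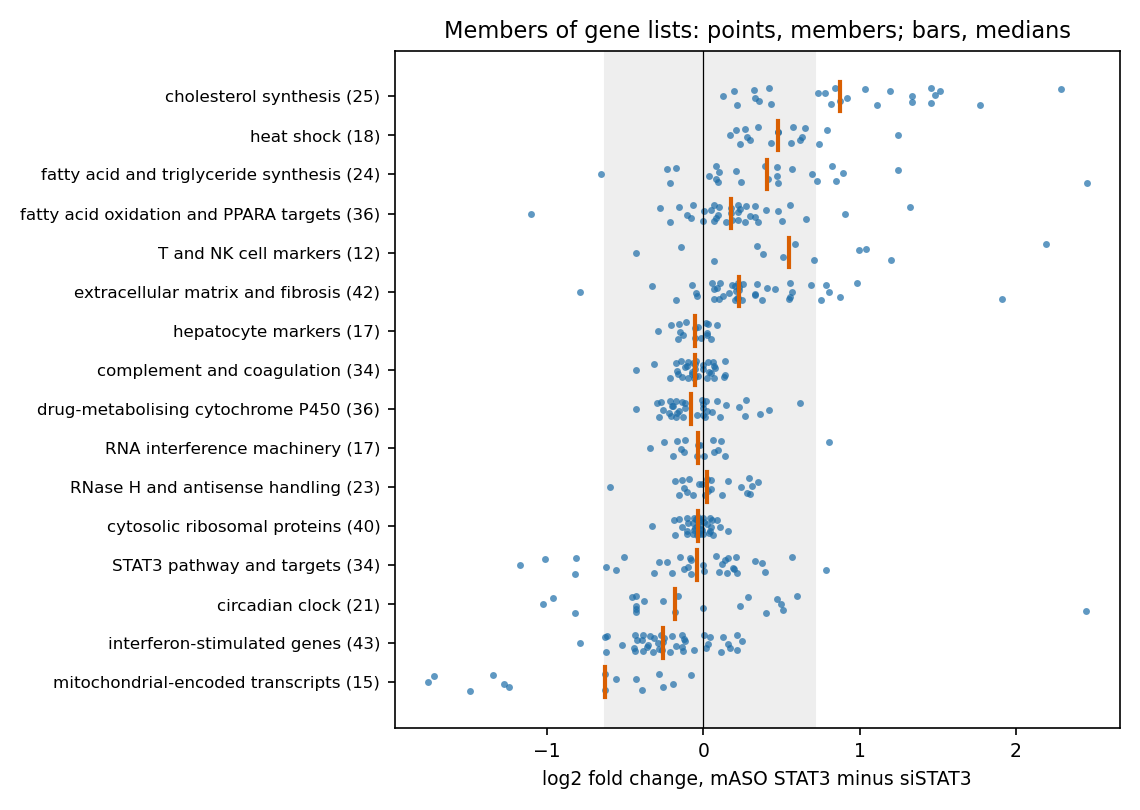
Log2 fold change, mASO STAT3 minus siSTAT3 (horizontal axis), of the members tested of selected gene lists (vertical axis), 1 point a gene and a bar at each list's median; the grey band spans −0.63 to 0.72, which holds 90% of all genes. Of the lists shown, cholesterol synthesis has the highest median (0.88) and mitochondrial-encoded transcripts the lowest (−0.63). Between them lie T and NK cell markers (0.55), heat shock (0.48), fatty acid and triglyceride synthesis (0.40), interferon-stimulated genes (−0.26) and lists nearer 0.

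Of 34 STAT3 pathway and target genes tested, 0 lay higher and 3 lower in mASO STAT3 at an unadjusted p under 0.05, against 3.19% and 2.66% of all genes. The median was −0.04, and 0.07 without siSTAT3 3. For 18 of the 34 the interval lay within 1 log2 unit, against 66.7% of all genes. Junb, an AP-1 subunit that cytokines induce, stood at 15.5, 13.7 and 17.1 CPM with mASO STAT3 and 15.98, 34.8 and 30.9 CPM with siSTAT3 (−0.82 ± 0.22). siSTAT3 1 lay within the range of the mASO STAT3 livers, and the other 2 siSTAT3 livers above it. Without siSTAT3 1 Junb passed over all genes (−1.09, edgeR adjusted p = 0.0175). Socs2, a feedback inhibitor of growth hormone signalling, was at −0.62 ± 0.23, and at −0.32 without siSTAT3 2. Cish, of the same family, was at −1.17 ± 0.44, and at −0.77 without siSTAT3 3. Of 31 acute phase genes 0 lay higher and 3 lower, with a median of −0.04. For mASO Scrbl minus siCntrl their median was −0.83. In it 0 lay higher and 21 lower at an unadjusted p under 0.05 (7.85% of all genes on either side). In the difference between the 2 load differences the median was 0.58, and 13 of 31 lay higher (4.45% of all genes).

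The machinery of each load's route was at like levels in the 2 groups. Among 17 genes of RNA interference, 16 intervals lay within 1 log2 unit (66.7% of all genes did), the median was −0.04, and 1 gene, the helicase Mov10 (−0.34), lay lower at an unadjusted p under 0.05. Among 23 genes of RNase H and antisense handling, 21 intervals lay within 1 log2 unit, the median was 0.03, and 0 genes had such a p. Of 25 sensors of foreign nucleic acid, 1 lay higher, Tmem173 (0.71), the gene of STING, and 1 lower, Irf7. Over all genes 3.19% lay higher and 2.66% lower at that p.

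Interferon-stimulated genes, which follow such sensors, had a median of −0.26, with 0 of 43 higher and 4 lower at an unadjusted p under 0.05 (2.66% of all genes were lower). Without siSTAT3 3 the median was −0.05 and 20 of the 43 lay above 0, against 11 with it, and without mASO STAT3 1 the median was −0.17. Irf7, their amplifying transcription factor, stood at 32.9, 35.1 and 41.5 CPM in mASO STAT3 against 44.5, 53.4 and 70.3 CPM in siSTAT3, without overlap (−0.62 ± 0.19). Rsad2 (−0.79), Ifit1 (−0.62) and Oasl1 (−0.44) were the others, with −0.49 for Rsad2 and −0.37 for Ifit1 without siSTAT3 3. siSTAT3 3 was the highest of its group for 36 of the 43 genes. The count moved to 11 without siSTAT3 1, 9 without mASO STAT3 3, 6 without siSTAT3 2 and 2 without siSTAT3 3 or without mASO STAT3 1. The control loads lay to the other side. For mASO Scrbl minus siCntrl the list's median was 0.31, with 14 of 43 higher and 0 lower at that p (7.85% of all genes on either side). The median of the difference between the 2 load differences was −0.61, against −0.01 over all genes.

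Markers of T and NK cells were low in all 6 livers and lay mostly to the mASO STAT3 side. Summed over 12 T and NK cell markers, the level was 9.70, 9.81 and 9.64 CPM in mASO STAT3 against 5.92, 4.37 and 8.97 CPM in siSTAT3, without overlap. The median was 0.55, 0.29 without siSTAT3 2 and 0.99 without siSTAT3 3. At an unadjusted p under 0.05, 2 of 12 lay higher, against 3.19% of all genes, Il2rb (1.04) and Cd8b1 (2.19). Cd8b1 rested on few reads, 12, 9 and 13 counts in mASO STAT3 and 1, 3 and 2 in siSTAT3. Where at least 1 CPM in 3 libraries was asked for, 2 of the 12 markers were left to test. In bulk tissue, more cells of a type and more RNA per cell cannot be told apart. Cd3e, a part of the T cell receptor complex, was at 0.103 to 0.722 CPM over the 6 livers. Of the markers of other cells, at that p, 0 of 14 Kupffer cell, 0 of 12 cholangiocyte, 0 of 14 monocyte and macrophage and 0 of 13 B and plasma cell markers lay on either side, 1 of 15 sinusoidal endothelial markers lay higher and 1 of 14 neutrophil markers lower. Of 23 genes of antigen presentation 20 were above 0 and 1 had such a p, H2-Eb1 (0.55). Cd74, the invariant chain, stood at 209, 197 and 149.6 CPM in the mASO STAT3 livers and 118, 119 and 167 CPM in the siSTAT3 livers (0.46 ± 0.23), which overlapped.

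Matrix genes were low in both groups, with 36 of 42 log2 fold changes above 0 and a median of 0.23. At an unadjusted p under 0.05, 4 lay higher and 0 lower, against 3.19% and 2.66% of all genes. Lox, which cross-links collagen, was at 1.91 ± 0.62, Ctgf, a matricellular growth factor, at 0.79 ± 0.31, and Tnc, the glycoprotein tenascin C, at 0.69 ± 0.29, which became 0.42 without mASO STAT3 1. Among 16 stellate cell and myofibroblast markers 0 had such a p, and the median was 0.28. Hand2, a transcription factor of stellate cells, stood at 12.7, 11.9 and 8.88 CPM with mASO STAT3 and 7.97, 7.77 and 7.68 CPM with siSTAT3, without overlap (0.52 ± 0.25).

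Other genes with the smallest unadjusted p were picked after their values were seen. Tubb2a, a beta-tubulin, stood at 67.5, 77.5 and 51.1 CPM in mASO STAT3 against 23.05, 20.1 and 22.9 CPM in siSTAT3. The lowest mASO STAT3 liver was above the highest siSTAT3 liver by a wide margin (1.57 ± 0.23, edgeR adjusted p = 0.0793). Both groups lay far below the controls, which had 380 to 789 CPM of Tubb2a. Against the control of its own arm the log2 fold change was −3.24 in the mASO arm and −4.37 in the siRNA arm. Slc45a3, a sugar transporter, stood at 17.6, 13.5 and 10.5 CPM in the mASO STAT3 livers and 6.49, 4.58 and 3.72 CPM in the siSTAT3 livers (1.48 ± 0.23, edgeR adjusted p = 0.0793), and Lrfn3, an adhesion protein known from synapses, at 11.9, 14.03 and 8.67 CPM with mASO STAT3 and 5.07, 4.42 and 4.48 CPM with siSTAT3 (1.31 ± 0.21). Hexim1, which restrains the elongation factor P-TEFb, was at 0.71 ± 0.13. On the other side, Fbxo21, an F-box protein, was at −0.97 ± 0.21. Nr0b2, the repressor SHP that bile acids induce through FXR, stood at 123, 82.3 and 107 CPM in mASO STAT3 against 60.8, 42.9 and 44.5 CPM in siSTAT3, without overlap (1.08 ± 0.22), and Cdkn1a, the cell cycle inhibitor p21, at 6.45, 3.33 and 3.88 CPM in the mASO STAT3 livers and 2.095, 1.72 and 0.676 CPM in the siSTAT3 livers (1.56 ± 0.42).

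Stress and growth lists lay on both sides of 0. At an unadjusted p under 0.05, 3.19% of all genes lay higher and 2.66% lower, and the counts of this paragraph are at that p. Of 40 genes of the ATF4 and unfolded protein responses, 2 lay higher and 2 lower. Chac1, a glutathione-degrading enzyme that ATF4 induces, was low, at 1.58, 0.399 and 1.63 CPM with mASO STAT3 and 1.83, 4.29 and 5.93 CPM with siSTAT3, without overlap (−1.74 ± 0.63). Trib3, a pseudokinase of the same response, stood at 9.75, 3.59 and 9.097 CPM in mASO STAT3 against 9.35, 21.5 and 16.99 CPM in siSTAT3, which overlapped (−1.09 ± 0.42). Hspa5, the chaperone BiP of the endoplasmic reticulum, stood at 784, 1292 and 874 CPM in the mASO STAT3 livers and 893, 608 and 556 CPM in the siSTAT3 livers, which overlapped (0.52 ± 0.24, and 0.27 without mASO STAT3 2). Over the whole list 27 of 40 estimates lay above 0, with a median of 0.17. Of 27 immediate early genes 4 lay higher and 1 lower, among them Dusp6, a phosphatase that switches off ERK, at 39.5, 53.6 and 53.2 CPM with mASO STAT3 and 34.4, 27.6 and 36.3 CPM with siSTAT3, without overlap (0.57 ± 0.15). Of 25 p53 target and apoptosis genes 4 lay higher and 0 lower, and of 40 cell cycle genes 0 lay on either side, with 8 intervals within 1 log2 unit at their low levels.

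Hepatocyte regulators and zone genes gave counts near those of all genes, of which 3.19% lay higher, 2.66% lower and 66.7% had an interval within 1 log2 unit. Of 24 hepatocyte transcription factors 2 lay higher and 1 lower, and 19 intervals lay within 1 log2 unit, as did 13 of 20 for pericentral and 14 of 20 for periportal genes. Nr1i2, the drug-sensing receptor PXR, stood at 153, 141 and 134 CPM in mASO STAT3 against 120.0, 116 and 85.9 CPM in siSTAT3, without overlap (0.41 ± 0.15), and Bcl6, a repressor of lipid and sex-biased genes, at 19.4, 10.4 and 17.4 CPM in the mASO STAT3 livers and 42.6, 24.1 and 22.9 CPM in the siSTAT3 livers (−0.93 ± 0.31). Bcl6 was highest in siSTAT3 1, and without it the log2 fold change was −0.58. Of 20 pericentral genes 1 lay higher, Oat, the ornithine aminotransferase, at 701, 638 and 530.1 CPM with mASO STAT3 and 407, 326 and 452 CPM with siSTAT3, without overlap (0.66 ± 0.20). Of 20 periportal genes 1 lay lower, Slc7a2, a carrier of arginine and other cationic amino acids, at 361, 264 and 487 CPM in mASO STAT3 against 582, 426 and 784 CPM in siSTAT3, which overlapped (−0.69 ± 0.27, and −0.44 without siSTAT3 3). In the neutrophil list Ltf, the lactoferrin gene, was low and rested on siSTAT3 2, at 0.665, 0.837 and 0.785 CPM in the mASO STAT3 livers and 1.79, 6.25 and 0.891 CPM in the siSTAT3 livers (−1.96 ± 0.76, and −0.82 without that liver).

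Ribosomal protein genes had 40 of 40 intervals within 1 log2 unit, against 66.7% of all genes, and complement and coagulation genes 31 of 34, with medians of −0.04 and −0.06. Among 36 drug-metabolising cytochrome P450 genes 0 had an unadjusted p under 0.05 and 25 intervals lay within 1 log2 unit, a share near that of all genes. Cyp3a44 had the smallest p of these, at 217, 184 and 301 CPM with mASO STAT3 and 147, 186 and 191 CPM with siSTAT3, which overlapped (0.42 ± 0.22). Among 2966 genes with a mean of at least 50 CPM over the 6 livers, the gap between the highest and the lowest liver had a median of 0.48 log2 units and stayed under 1 for 2735 (92.2%). The narrowest were Sdf4, a Golgi calcium-binding protein, at 177 to 185 CPM, and Slc27a5, the bile acid-CoA ligase, at 1678 to 1765 CPM. The widest were Aacs, which feeds ketone bodies into sterol synthesis, at 69.7, 214 and 86.4 CPM in mASO STAT3 against 84.2, 34.8 and 25.7 CPM in siSTAT3, and H19, an imprinted long noncoding RNA, at 848, 432 and 557 CPM in the mASO STAT3 livers and 107, 487 and 299.7 CPM in the siSTAT3 livers. Both overlapped between groups, and Aacs was highest in mASO STAT3 2.

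The 6 livers had a common core. A count was found in each of the 6 for 15811 of 25540 symbols, 11369 tested genes reached 1 CPM in each and 1321 reached 100 CPM. The 15 genes with the largest share of counts held 22.2% to 26.3% of each library, among them Alb, Apoe, Apoa2, Ahsg, C3, Apoa1, Ttr, Cyp2e1, Apoc1, Gc and Serpina3k, which encode secreted plasma and lipoprotein proteins apart from the enzyme Cyp2e1. mt-Co1, mt-Cytb and mt-Nd1 and the unnamed gene model Gm26924 made up the rest. Divided by exon length from GENCODE, the mean over the 6 livers was highest for Alb, then the unnamed gene model Gm23935, Apoa2 and Apoe, and the highest single value was that of Gm23935. Gm26924 had no matched length.

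Against the control of its own arm, each STAT3 group differed widely, and these 2 comparisons share no library with each other, though each shares its STAT3 group with the comparison above. edgeR called 6886 genes (43.8%) in the mASO arm and 7190 (45.7%) in the siRNA arm. In both arms the same way, 2734 genes (17.4%) rose and 2657 (16.9%) fell, and for 2534 and 2429 of them (16.1% and 15.5%) the 6 STAT3-labelled livers did not overlap with the 6 controls. With library totals alone as the scale, which moves the median of all genes to −0.63 in the mASO arm and −0.53 in the siRNA arm, the split was 1230 higher and 6319 lower. The same scale left the comparison of the 2 loads near its place, with a median of 0.03.

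The genes that rose most in both arms included enzymes of hepatocytes. Cyp7a1, which sets the rate at which bile acids are made, stood at 169, 165 and 375 CPM with mASO STAT3 and 469.8, 354 and 577 CPM with siSTAT3 and at 0.107 to 0.575 CPM in the controls (log2 fold change 9.55 in the mASO and 10.66 in the siRNA arm, edgeR adjusted p = 1.11e-06 and 6.43e-07). Between the loads it was at −0.98 ± 0.45, and at −1.49 without mASO STAT3 3. Cyp2e1, a P450 of hepatocytes around the central vein, ranged from 8829 to 10144 CPM in the 6 livers and from 32.02 to 94.1 CPM in the controls. Upp2, Slc1a2, Serpina6, Cyp3a16, Hamp2, Thrsp and Cyp2g1 were also among the 10 highest. By list, 32 of 36 P450 genes, 28 of 31 nuclear genes of oxidative phosphorylation, 34 of 44 genes of amino acid breakdown, 25 of 33 of phase II conjugation and 16 of 20 pericentral genes rose in both arms, against 17.4% of all genes. These counts are on the TMM scale. The median was 2.63 in the mASO and 2.97 in the siRNA arm for P450 genes. For the nuclear oxidative phosphorylation genes it was 0.85 and 0.90, nearer in size to the shift that library totals make.

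The genes that fell most in both arms included those of contractile and matrix-forming cells. Acta2, the smooth muscle actin of myofibroblasts, ranged from 0.932 to 1.67 CPM in the 6 livers and from 81.9 to 145 CPM in the controls. Lox and Thbs1, the matricellular thrombospondin, were of the same 10, with Sprr1a, Psat1, Fam83a, Ly6d, Gprc5a and Uhrf1. By list, 32 of 42 matrix genes and 18 of 40 cell cycle genes fell in both arms, against 16.9% of all genes. The 16 stellate cell and myofibroblast markers were mixed: 6 fell and 3 rose in both arms (17.4% of all genes rose). Reln, of that list, ranged from 69.7 to 112 CPM in the 6 livers and from 32.5 to 52.6 CPM in the controls. The letters TTCNNNGAA, a form of the STAT binding motif, searched on both strands, were in 6.98% of the promoter windows of genes that rose in both arms, in 6.95% of those that fell and in 7.0% of the windows of all genes tested that matched.

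**Figure D5:**
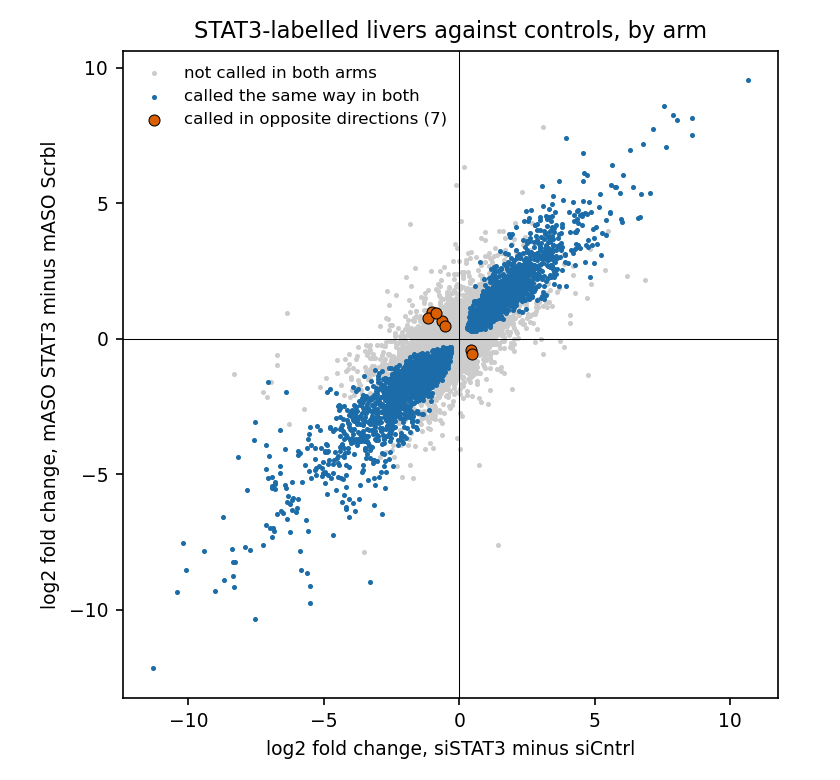
Log2 fold change against the control of its own arm, siSTAT3 minus siCntrl (horizontal axis) and mASO STAT3 minus mASO Scrbl (vertical axis), 1 point a gene, coloured by the edgeR calls in both arms. The 2 axes share no library; 2734 genes were called higher and 2657 lower on both, and 7 in opposite directions.

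In opposite directions in the 2 arms edgeR called 7 genes (0.0445%). Hmgcs1, Fdps and Dhcr7, of sterol synthesis, were among them. Hmgcs1 rose by 0.78 on the log2 scale in the mASO arm and was at −1.15 in the siRNA arm (edgeR adjusted p = 0.0154 and 0.00142). Fdps was at 0.99 and −1.002, and Dhcr7 at 0.64 and −0.65. Vnn3, a pantetheinase (0.96 and −0.87), and the galectin-like Lgalsl (0.47 and −0.53) had the same order. Atrx, a chromatin remodeller, stood at 28.4, 33.6 and 33.7 CPM in mASO STAT3 against 44.3, 41.7 and 40.5 CPM in siSTAT3 and was at −0.40 in the mASO and 0.42 in the siRNA arm, and Foxk1, a forkhead factor, at −0.55 and 0.46. The estimates of all 7 are on the TMM scale, and library totals move the median of all genes to −0.63 (mASO arm) and −0.53 (siRNA arm). Under library totals Lgalsl was at −0.11 in the mASO arm, and Atrx at −0.08 and Foxk1 at −0.03 in the siRNA arm. With that scale 6 genes, not necessarily of these, were called in opposite directions. The difference itself passed for none of these 7 over all genes, with edgeR adjusted p = 0.199 for Hmgcs1.

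The 2 control loads were compared in the same way, in libraries of their own. By edgeR 2 of 15720 genes (0.0127%) passed, both lower in mASO Scrbl: Saa3, an acute phase protein of macrophages and injured tissue, at −4.84, and the pseudogene Ppp1r2-ps4 at −5.06. At an unadjusted p under 0.05 there were 1234 genes (7.85%), and 10279 intervals (65.4%) lay within 1 log2 unit. The difference between the 2 load differences passed for 1 gene (0.00636%), Hacl1, which splits 2-hydroxy fatty acids in peroxisomes. Hacl1 stood at 329, 481 and 345 CPM in the mASO STAT3 livers and 216, 195 and 205 CPM in the siSTAT3 livers, without overlap (0.91 ± 0.18, edgeR adjusted p = 0.216). In the controls it stood at 55.5, 50.9 and 54.7 CPM in mASO Scrbl and 135, 88.3 and 139.8 CPM in siCntrl, the other way round (−1.17 ± 0.18). The difference was 2.08 ± 0.26 (edgeR adjusted p = 0.0216), and the adjusted p ran from 2.08e-10 to 0.129 over the alternatives.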

How the data were processed

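RNA of liver samples, sequenced as 12 libraries, was extracted with TRIzol and prepared with a stranded Illumina mRNA kit, per the labels' protocols. Raw counts by gene symbol were deposited, and a second deposited table of normalized signal was not used. The submitters' processing notes name TopHat and Cufflinks, with no version. Build, annotation, counter and strand setting are not given in these sources, so close paralogs, pseudogenes and overlapping genes are uncertain.

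The 12 libraries (39844158 to 67791159 counts) entered 1 fit with a term per group in edgeR 4.0.16 (R 4.3.3), with TMM scaling and filterByExpr (minimum count 10, minimum total 15), which kept 15720 of 25540 symbols. Tests were robust quasi-likelihood F tests, at a Benjamini-Hochberg adjusted p under 0.05 over all genes tested and 8 residual degrees of freedom. SE is the size of the log2 fold change divided by the square root of F. Alternatives used DESeq2 1.42.0 and limma 3.58.1 (voom), other scalings and filters, the replicate block, the 6 libraries alone and leaving out each library. Fits were tested on simulated data. Same-numbered libraries had residual correlations of −0.404, −0.212 and 0.234, so numbers were not taken to pair them. Pairs within a group differed by more than sampling noise (chi-square per degree of freedom 52.6 to 222).

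The members, the 53 gene lists and the tests were chosen with earlier results of these data known. Genes named are Stat3, up to 4 members of a list with the smallest p (most of the cholesterol list), the extremes of range, abundance and common calls, and others said to be picked after their values were seen. Further list members named beyond 4 were picked the same way. Of 1138 listed genes, 22 were matched through an older symbol. Promoter windows come from RefSeq (GRCm38.p6), with 11583 of the 15720 genes matched. The lists, motifs and sets counted here carry no set test. Counts and medians of lists include members whose single values are not reported here.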

Additional observations from a re-analysis of the deposited data

Results flagged for a closer look

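Hacl1, which splits 2-hydroxy fatty acids in peroxisomes, differed between the 2 kinds of load one way in the STAT3-labelled livers and the other way in the controls. The mean was 385 CPM in mASO STAT3, 205 in siSTAT3, 53.7 in mASO Scrbl and 121 in siCntrl. The interaction contrast of edgeR was 2.08 ± 0.26 on the log2 scale (adjusted p = 0.0216). Over the alternatives the contrast lay between 1.88 and 2.26. Its adjusted p missed 0.05 with the replicate block and without siSTAT3 2, siSTAT3 3, mASO STAT3 3, mASO Scrbl 2 or mASO Scrbl 3, and was 0.129 at the most.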

How the results depend on the processing

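Of 1654 values of 98 genes in mASO STAT3 minus siSTAT3 under the alternatives, 1573 kept their direction and side of the threshold, 78 newly passed (39 genes) and 3 changed sign: Stat3, −0.21 to 0.0022 over the alternatives, the latter without mASO STAT3 2, Stard4, −0.023 without siSTAT3 2 and up to 0.27 without siSTAT3 1, and Stat6, −0.0029 without mASO STAT3 2 and up to 0.13 without mASO STAT3 1. Genes called between the loads were 0 with each scaling, voom and the replicate block, 6 without a filter on low counts, 78 with DESeq2's Wald test and 92 with DESeq2 on the 6 libraries alone, a fit chosen after seeing the data, and 0 to 5 without single libraries. For mASO Scrbl minus siCntrl, 5 were called with library totals, 7 without a filter, 79 with DESeq2 and 0 to 13 without single libraries. For the difference of the load differences, 3 were called without a filter, 2 at 1 CPM or with voom, 61 with DESeq2, 0 with the replicate block and 0 to 8 without single libraries. With the block in the 6-library fit the calls between the loads were 0. Why DESeq2 called more was not tested. Library totals gave 1230 genes higher and 6319 lower in both arms, and leaving out single libraries 2422 to 2661 and 2213 to 2494. Genes called in opposite directions in the arms numbered 2 to 15. Under library totals, which shift the median of each arm, Lgalsl went to −0.11 (mASO arm), Atrx to −0.076 and Foxk1 to −0.035 (siRNA arm). Uhrf1 missed the threshold in the siRNA arm with voom (adjusted p = 0.0697). The count of cholesterol genes at an unadjusted p under 0.05 lay between 16 and 21. Counting noise limits genes near 0 CPM, and the interval of a middle gene spans 0.963 log2 units.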
